A study of Mus musculus with 1 sample.

Results

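The major histocompatibility complex (MHC) genes described here are 10 of the 32285 genes counted in a single-cell library of the mouse adrenal medulla, taken by symbol from the gene table and each present there under 1 identifier. They comprise *B2m*, *H2-K1*, *H2-D1* and *H2-T23*, which encode the chains of class I molecules, *Tap1* and *Tapbp*, which load them, and *H2-Aa*, *H2-Ab1*, *H2-Eb1* and *Cd74*, which make up the class II pathway. The library came from wild-type mice at postnatal day (P) 15, with no treatment, and pooled 10 adrenals from 5 mice of mixed sex after fat and most cortex had been dissected away. According to the methods of the study, its mice were kept on mixed backgrounds crossed to CD1, an outbred stock, so their H2 alleles may differ from those of the reference genome against which the reads were counted, and the loss of reads that this could cause was not tested. With 1 library there were no replicates and no test between samples. The intervals given are exact 95% intervals of counting error only (Poisson for levels, Clopper-Pearson for shares of cells), and say nothing of the spread between mice.

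Class I molecules are carried by most nucleated cells. They consist of a heavy chain, here H2-K, H2-D or the non-classical chain Qa-1 encoded by *H2-T23*, bound to beta-2 microglobulin (*B2m*), and they present peptides of cytosolic proteins, which the TAP transporter brings into the endoplasmic reticulum and tapasin (*Tapbp*) helps to load, to CD8+ T cells and natural killer cells. Class II molecules, made of an alpha and a beta chain, present peptides from endosomes to CD4+ T cells and are held until then by the invariant chain (*Cd74*). They are typical of macrophages, dendritic cells and B cells. *H2-Aa* and *H2-Ab1* encode partner alpha and beta chains, whereas *H2-Eb1* encodes a beta chain whose own alpha partner is not among the members. Interferon gamma raises both classes in many cell types. Neurons and neuroendocrine cells are known for low class I levels.

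In the GRCm38 (mm10) assembly with GENCODE M21 annotation, 8 of the 10 genes lay on chromosome 17, in the H2 complex. From the lowest coordinate these were *Tapbp* (33915899 to 33929292, plus strand), *H2-K1* (33996017 to 34000347, minus), *Tap1* (34187553 to 34197225, plus), *H2-Ab1* (34257689 to 34269419, plus), *H2-Aa* (34282744 to 34287823, minus), *H2-Eb1* (34305867 to 34316674, plus), *H2-D1* (35262730 to 35267499, plus) and *H2-T23* (36029773 to 36032855, minus). *B2m* lay on chromosome 2 (122147686 to 122153083, plus) and *Cd74* on chromosome 18 (60803848 to 60812652, plus). Promoter windows of RefSeq (GRCm38.p6), running from 250 bases before to 50 after an annotated start, were found for 8 of the 10 genes, all but *H2-Ab1* and *Cd74*.

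The 100 bases before the RefSeq start are shown for members of both classes, since an element found in most members stands at a like distance from the start in these 5. In *H2-D1* and *H2-T23* the bases shown lie within the GENCODE gene span given above. Distances from the start therefore hold for the RefSeq start. Capitals mark the Y box, searched on both strands as CTGATTGG, or in *B2m* its core, CCAAT; where the match was on the other strand the capitals read in reverse complement. All are written 5′ to 3′ on the strand of the gene, and lie at chr2:122147587-122147686 (*B2m*, plus), chr17:35262994-35263093 (*H2-D1*, plus), chr17:36032702-36032801 (*H2-T23*, minus), chr17:34287824-34287923 (*H2-Aa*, minus) and chr17:34305767-34305866 (*H2-Eb1*, plus).

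B2m: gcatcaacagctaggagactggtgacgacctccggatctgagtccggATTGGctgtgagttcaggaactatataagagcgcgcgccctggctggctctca

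H2-D1: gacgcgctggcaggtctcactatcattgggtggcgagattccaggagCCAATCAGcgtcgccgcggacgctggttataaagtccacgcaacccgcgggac

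H2-T23: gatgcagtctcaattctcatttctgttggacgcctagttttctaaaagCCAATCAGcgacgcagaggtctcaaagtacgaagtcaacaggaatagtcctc

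H2-Aa: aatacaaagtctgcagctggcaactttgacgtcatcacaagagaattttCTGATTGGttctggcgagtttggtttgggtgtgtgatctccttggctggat

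H2-Eb1: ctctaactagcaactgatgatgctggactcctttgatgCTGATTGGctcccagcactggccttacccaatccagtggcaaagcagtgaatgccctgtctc

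The Y box, the element bound by the NF-Y complex in class II and class I promoters, was found as CTGATTGG in the windows of 6 of the 8 members (*H2-K1*, *H2-D1*, *H2-T23*, *Tap1*, *H2-Aa* and *H2-Eb1*) and in 4.10% of all 32851 windows. Its first base stood 53 bases before the start in *H2-D1*, 52 in *H2-T23*, 51 in *H2-Aa* and 62 in *H2-Eb1*, but 222 in *Tap1*. In *H2-K1* a single site stood 6 bases before an annotated start and 8 after another. The core alone, CCAAT, which overlaps the Y box, was in all 8 members' windows and in 37.4% of all windows. The interferon regulatory factor element GAAANNGAA was in the windows of *B2m* and *H2-T23* and in 8.56% of all windows, and the X1 box CCTAGNNAC was in no member's window and in 3.91% of all. A match is a run of letters and not evidence of binding. Only exact matches were counted, so a site that differs in a single base is missed. The lack of a match therefore does not show that an element is absent.

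The levels below are counts per 1000000 (CPM): the unique molecular identifiers (UMIs, each marking 1 transcript molecule read at its 3′ end) of a gene summed over the cells of a class for every 1000000 UMIs of those cells. Of 11214 barcodes, 10139 passed the filters, with a median of 3567 UMIs. Clusters were drawn without the MHC and related genes and named "like" a cell type from its markers. They gave 13 named or partly named classes and 1 unnamed cluster. In the medulla there were 1653 adrenaline chromaffin-like cells, 396 noradrenaline chromaffin-like cells, 143 cycling chromaffin-like cells, 173 sustentacular-like (glial) cells and 424 transitioning cells that carried markers of both chromaffin and sustentacular cells. The rest of the gland gave 3393 cortex-like, 2140 endothelial-like and 89 fibroblast-like cells, 466 macrophage-like cells with 43 more in cycle, 60 further immune cells led by *Plac8*, and an unnamed cluster of 43 cells led by *Ccl5*, *Gzma* and *Nkg7*. A further 1116 cells in clusters with markers of more than 1 lineage, of which Scrublet called 53.3% as doublets, were left out. The number of mice behind each class is not known.

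**Figure D1:**
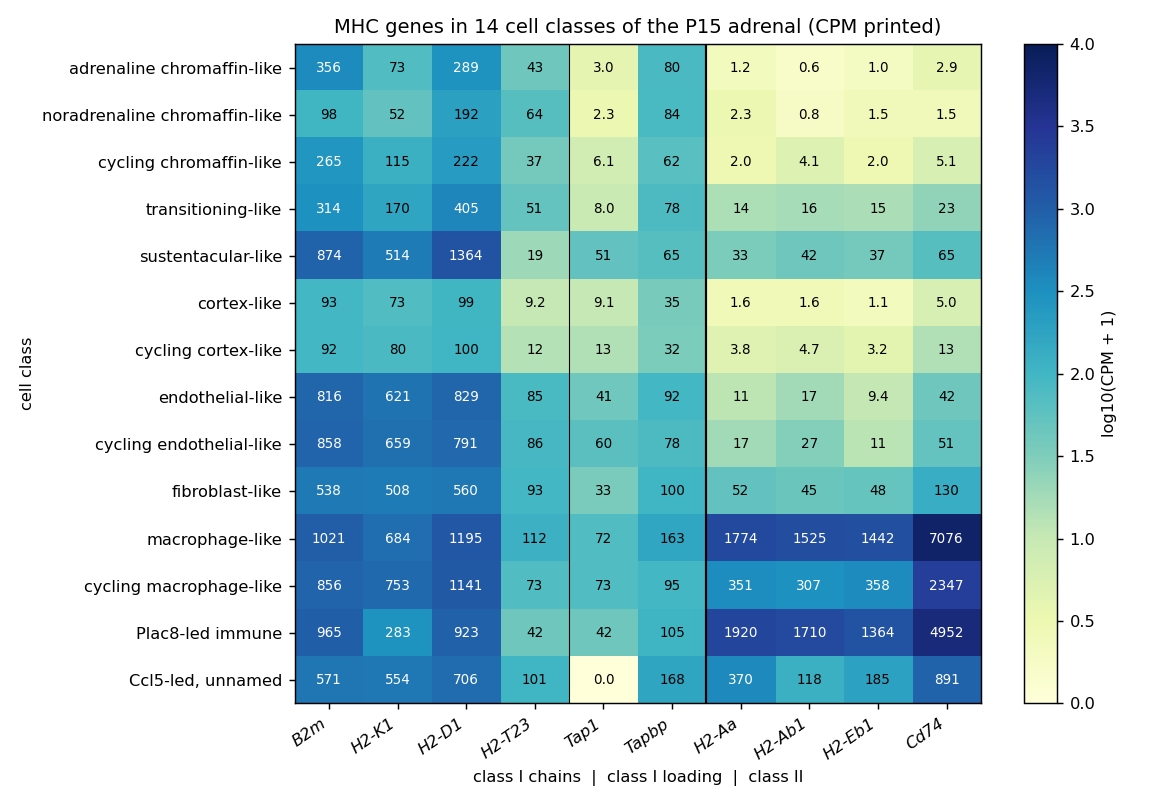
Heat map of the 10 MHC genes (columns: class I chains, class I loading, class II) over 14 cell classes (rows), coloured by log10(CPM + 1) with the CPM printed. *B2m*, *H2-K1* and *H2-D1* were read in every class, from 51.5 CPM of *H2-K1* in noradrenaline chromaffin-like cells to 1364 CPM of *H2-D1* in sustentacular-like cells, whereas the class II genes stood above 100 CPM in the immune clusters, the unnamed cluster and, for *Cd74* alone, fibroblast-like cells.

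Class I chains were read throughout the gland, at levels that differed several-fold between classes. Summed over *B2m*, *H2-K1*, *H2-D1* and *H2-T23*, they took 2916 CPM (2814 to 3020.5) in immune cells, 2770.3 CPM (2552 to 3002) in sustentacular-like cells and 2364 CPM (2325 to 2405) in endothelial-like cells. Fibroblast-like cells followed with 1698 CPM (1546 to 1861), but this class also held markers of other lineages, with 3790.1 CPM over 8 of 8 endothelial, 3360 CPM over 7 of 7 chromaffin and 2184 CPM over 8 of 8 cortex markers beside 3334 CPM over 6 of 6 fibroblast markers, and their part in its class I level was not tested. The chromaffin lineage stood well below, with 939.9 CPM (903 to 978) in transitioning cells, 760.2 CPM (740.2 to 780.5) in the adrenaline class and 406 CPM (372 to 442) in the noradrenaline class, and cortex-like cells were lowest with 276 CPM (269 to 283). Of the neighbours in this order, immune and sustentacular-like cells had overlapping intervals. In CPM, the chromaffin-like cells were thus not the lowest cells of the gland. Counted as UMIs per cell, the class I sum was lower in the noradrenaline class than in the cortex.

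*B2m*, the light chain shared by all class I molecules, followed the same order except within the chromaffin cells. It stood at 995 CPM (936 to 1056) in immune, 874 CPM (753 to 1008) in sustentacular-like and 829.8 CPM (806 to 854) in endothelial-like cells, of which the latter pair could not be told apart (ratio 1.05, 0.903 to 1.22). Adrenaline chromaffin-like cells had 356 CPM (343 to 370.3), noradrenaline chromaffin-like cells 98.5 CPM (82.3 to 117), and cortex-like cells 92.8 CPM (88.8 to 97.0). In CPM over all cells, noradrenaline chromaffin-like cells thus read *B2m* at the level of the cortex, and 0.276 times (0.230 to 0.330) that of their adrenaline counterparts. They read lower than the cortex when counted as UMIs per cell, and among the female and the male cells described below. It was the only member 2-fold or more lower in noradrenaline than in adrenaline chromaffin-like cells, 1 of 5 members that reached 10 CPM, where 5.21% of all genes were. The 3 subclusters of adrenaline chromaffin-like cells ranged from 346 to 412 CPM, so each of them stood above the noradrenaline class.

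*H2-K1*, a classical heavy chain, was the class I chain with the widest gap between vessel wall and chromaffin cells. Its level was 633 CPM (613 to 654) in endothelial-like and 657 CPM (609 to 707) in immune cells, but adrenaline chromaffin-like cells had only 72.5 CPM (66.5 to 79.0) and their noradrenaline counterparts 51.5 CPM (40 to 65.3). The ratio of endothelial-like to adrenaline chromaffin-like cells was 8.73 (7.97 to 9.59) for *H2-K1*, against 2.83 (2.68 to 2.98) for *H2-D1* and 2.33 (2.22 to 2.44) for *B2m*. Counted as UMIs per cell, it was 5.29 for *H2-K1* and 1.41 for *B2m*. In contrast to *B2m* and *H2-D1*, *H2-K1* was not lower in the cortex (74.0 CPM, 70.4 to 77.7) than in adrenaline chromaffin-like cells (ratio 1.02, 0.925 to 1.13). Reads of *H2-K1*, *H2-D1* and the *H2-Q* genes may be assigned to each other because these genes are near-identical copies, so their separate levels are uncertain.

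*H2-D1*, the second classical heavy chain, reached its highest level in sustentacular-like cells, at 1364 CPM (1212 to 1529.9), where it exceeded endothelial-like cells 1.67-fold (1.48 to 1.88) and adrenaline chromaffin-like cells 4.72-fold (4.16 to 5.34). Immune cells had 1164 CPM (1100.0 to 1231) and transitioning cells 405 CPM (381 to 430.0), and the adrenaline and noradrenaline classes 289 CPM (277 to 301) and 192 CPM (169 to 217). Since sustentacular-like cells were shallow, with a median of 1117 UMIs against 3168 in adrenaline chromaffin-like cells, each cell was also thinned to 1000 UMIs. At that common depth 61.5% of 117 sustentacular-like cells held an *H2-D1* UMI, against 24% of 1643 adrenaline chromaffin-like cells and 9.64% of cortex-like cells. Counted as UMIs per cell rather than CPM, the ratio of 4.72 was 1.33. The order was another among the cells called female from their transcripts, as described below: in these *H2-D1* stood at 259 CPM in 21 sustentacular-like cells, 312 CPM in the endothelium and 216 CPM in the adrenaline class. The sex of 127 sustentacular-like cells could not be called. This class also held markers of other lineages beside 4097 CPM over 7 of 7 sustentacular markers. Erythroid markers summed to 9432 CPM (5 of 5 read), chromaffin markers to 2369 CPM (6 of 7) and fibroblast markers to 2261 CPM (3 of 6). Erythroid markers stood at 2214 CPM in the adrenaline class and 4251 CPM in noncycling endothelial-like cells. The part of such RNA in the class I level of sustentacular-like cells was not tested.

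The balance between the heavy chains differed between lineages. For each *H2-D1* UMI there were 0.251 *H2-K1* UMIs (0.228 to 0.276) in adrenaline and 0.269 (0.203 to 0.353) in noradrenaline chromaffin-like cells. Endothelial-like cells had 0.776 (0.743 to 0.811) and cortex-like cells 0.747 (0.700 to 0.797), with immune cells at 0.564 (0.514 to 0.620). Transitioning and sustentacular-like cells lay between, at 0.420 (0.375 to 0.470) and 0.377 (0.300 to 0.471). The summed class I level of the endothelium was 8.58-fold (8.32 to 8.85) that of the cortex.

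*H2-T23*, which encodes the non-classical chain Qa-1, a ligand of inhibitory receptors on natural killer cells, was arranged differently. It was highest in macrophage-like cells (112 CPM, 90.4 to 137) and stood at 85.0 CPM (77.6 to 92.9) in endothelial-like cells, but within the medulla it was highest in noradrenaline chromaffin-like cells (64.4 CPM, 51.4 to 79.6) and lowest in sustentacular-like cells (18.7 CPM, 5.09 to 47.8, from 4 UMIs). The ratio of noradrenaline to adrenaline chromaffin-like cells was 1.51 (1.18 to 1.93), opposite in direction to *B2m*, *H2-K1* and *H2-D1*. The ratio of sustentacular-like to endothelial-like cells was 0.220 (0.0598 to 0.567). For each *H2-D1* UMI there were 0.336 (0.260 to 0.431) of *H2-T23* in noradrenaline chromaffin-like cells and 0.0137 (0.00371 to 0.0355) in sustentacular-like cells.

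**Figure D2:**
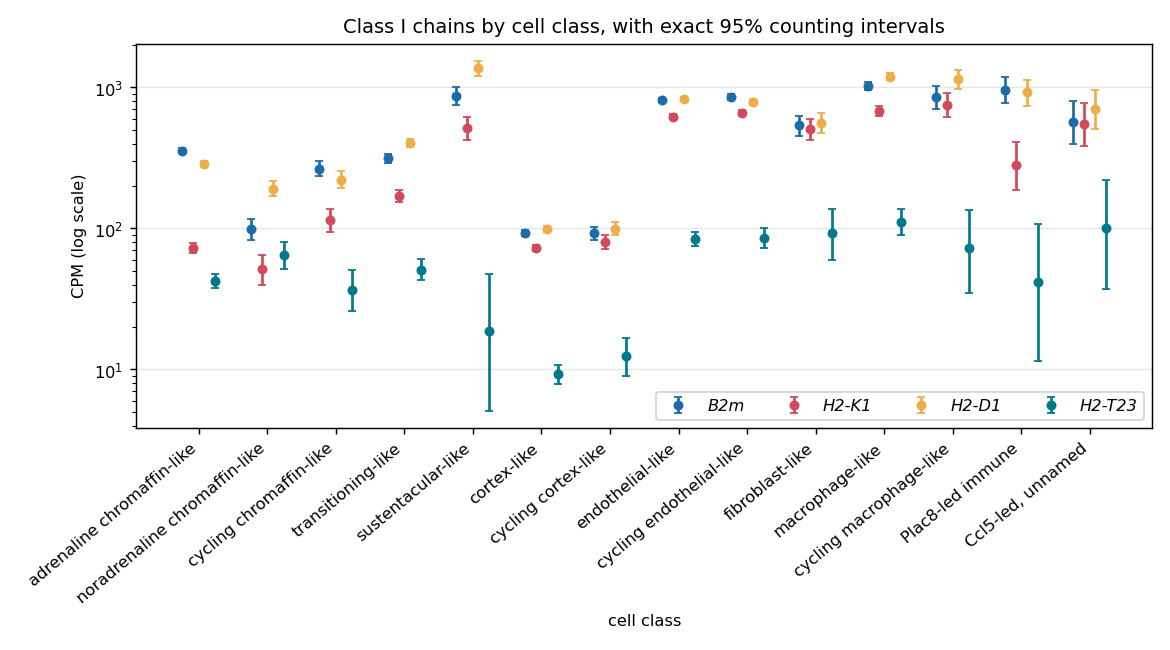
Levels of the 4 class I chains (CPM, log axis) in 14 cell classes, with exact 95% counting intervals as bars. *B2m*, *H2-K1* and *H2-D1* lie together in the endothelial-like, fibroblast-like and cortex-like classes, *H2-K1* drops below the other 2 in adrenaline chromaffin-like cells (72.5 against 356 and 289 CPM), and *H2-T23* is lowest in every class except noradrenaline chromaffin-like cells.

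Of the loading genes, *Tap1*, a subunit of the peptide transporter, separated the classes more than *Tapbp* did. *Tap1* was near its lowest in chromaffin-like cells, with 3.03 CPM (1.90 to 4.58) in the adrenaline class and 2.27 CPM (0.469 to 6.64, from 3 UMIs) in the noradrenaline class, and stood at 9.71 CPM (8.45 to 11.1) in the cortex, 47.2 CPM (41.8 to 53.2) in the endothelium, 51.4 CPM (25.7 to 91.9) in sustentacular-like cells and 69.6 CPM (54.7 to 87.4) in immune cells. It was the only class I member more than 2-fold higher in the cortex than in adrenaline chromaffin-like cells (ratio 3.21, 2.06 to 5.23), although both levels stayed under the 10 CPM needed for the gene counts below. *Tapbp* ranged from 62.5 to 84.1 CPM over the 3 chromaffin classes, with 34.8 CPM (32.4 to 37.4) in the cortex, 87.6 CPM (80.1 to 95.6) in the endothelium and 65.4 CPM (35.8 to 109.7) in sustentacular-like cells. *Tap1* UMIs for each *Tapbp* UMI thus went from 0.0380 (0.0236 to 0.0581) in adrenaline chromaffin-like cells to 0.539 (0.463 to 0.626) in the endothelium. In the unnamed cluster *Tap1* had 0 UMIs of 59516, with an exact upper limit of 62.0 CPM.

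Within the medulla the class I genes were compared along the cells that carry both identities. Transitioning cells exceeded noradrenaline chromaffin-like cells 3.18-fold in *B2m* (2.64 to 3.86), 3.30-fold in *H2-K1* (2.55 to 4.33) and 2.11-fold in *H2-D1* (1.84 to 2.43), but not in *H2-T23* (0.794, 0.600 to 1.05) or *Tapbp* (0.926, 0.731 to 1.18). As UMIs per cell the *B2m* ratio was 5.91. These 3 were thus 2-fold or more higher, of 5 members that reached 10 CPM in both classes, where 7.04% of all genes that reached it in either class were. The 4 class II genes reached 10 CPM through the transitioning class alone, where 2 cells held 48.3% of their UMIs (below), and are not counted. Sustentacular-like cells in turn exceeded transitioning cells 2.78-fold in *B2m* (2.36 to 3.27), 3.02-fold in *H2-K1* (2.43 to 3.73) and 3.37-fold in *H2-D1* (2.95 to 3.84). Compared with adrenaline chromaffin-like cells, however, transitioning cells had slightly less *B2m* (0.880, 0.813 to 0.953) and 2.35-fold more *H2-K1* (2.06 to 2.67). Of the 5 members that reached 10 CPM in both classes, sustentacular-like cells were 2-fold or more higher than adrenaline chromaffin-like cells in 3, *B2m*, *H2-K1* and *H2-D1* (20.4% of all genes that reached it in either class), and lower in 1, *H2-T23* (23.5% of these genes). *Tap1* and the class II genes reached 10 CPM through the sustentacular-like class alone, on 7 to 14 UMIs each. The ratio for *H2-T23* was 0.440 with an interval of 0.119 to 1.14.

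**Figure D3:**
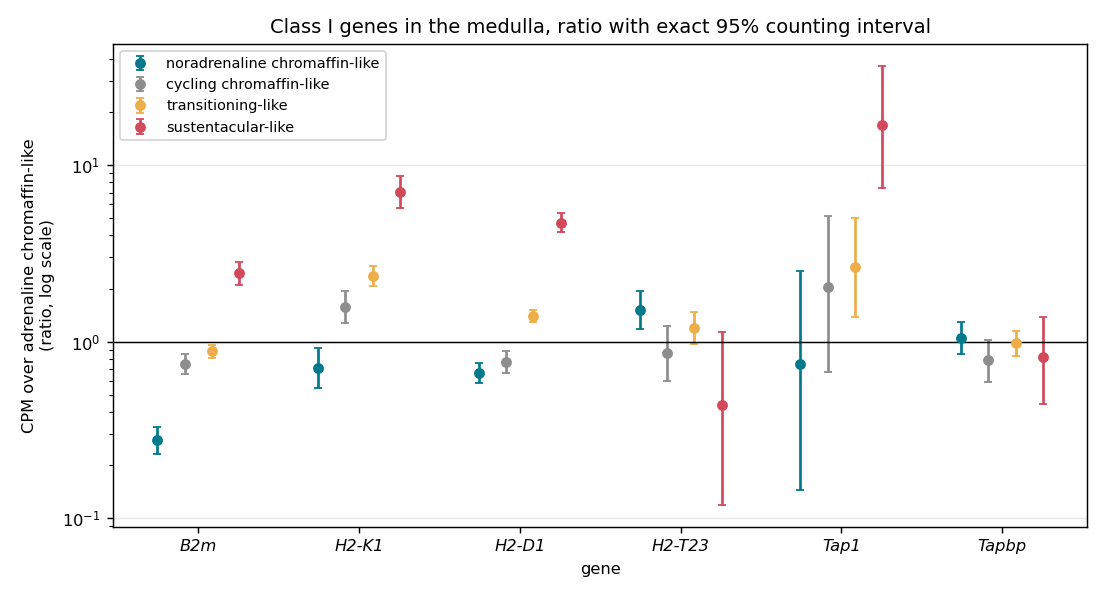
Ratio of the CPM of 6 class I genes in 4 medullary classes to that in adrenaline chromaffin-like cells (log axis), with exact 95% counting intervals. Sustentacular-like cells stand above the line at 1 for *B2m* (2.45), *H2-K1* (7.09), *H2-D1* (4.72) and *Tap1* (17), noradrenaline chromaffin-like cells stand below it for *B2m* (0.276) and above it for *H2-T23* (1.51), and the intervals for *Tapbp* all cross it.

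Of the same 5 members, which reached 10 CPM on both sides, endothelial-like cells were 2-fold or more higher than adrenaline chromaffin-like cells in 3 (*B2m*, *H2-K1* and *H2-D1*), where 23.1% of all genes were, and immune cells in 4 (also *H2-T23*), where 21.1% were. These shares are over genes that reached 10 CPM in either class, a looser filter. Among the cells called female (below), *B2m* and *H2-D1* differed less than 2-fold between endothelial-like and adrenaline chromaffin-like cells. *Tap1* and the class II genes stood at 3.03 CPM or less in the adrenaline class and passed 10 CPM through the other class alone. Cortex-like cells were 2-fold or more lower in 4 of 5 members that reached 10 CPM (*B2m*, *H2-D1*, *H2-T23* and *Tapbp*), where 21.9% of all genes were. Within the endothelium the 3 noncycling subclusters differed little: *B2m* lay between 812 and 827 CPM in all of them, and *H2-D1* reached 996 CPM (891 to 1109) in the subcluster led by *Mgp* and *Lyve1*. Cycling cells differed from noncycling ones of their type by less than the counting error in *B2m* and *H2-K1* in the endothelium and cortex (ratios of 0.992 to 1.11, with intervals that hold 1). Within the cortex, the subcluster led by *Ecrg4*, *Vsnl1* and *Wnt4* had the least *B2m* (40.5 CPM, 26.0 to 60.3) with *H2-K1* at 109.8 CPM (84.7 to 139.9), whereas the 5 other noncycling subclusters had 73.8 to 124 CPM of *B2m*.

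Class II genes were concentrated in the immune cells. *Cd74*, the invariant chain, reached 7076 CPM (6896 to 7259) in macrophage-like cells and 4952 CPM (4515 to 5419.7) in the *Plac8*-led immune cells, with 44.6 CPM (39.3 to 50.4) in the endothelium, 6.32 CPM (5.31 to 7.47) in the cortex, 2.89 CPM (1.79 to 4.42) for the adrenaline class and 1.52 CPM (0.184 to 5.47, from 2 UMIs) for the noradrenaline class. The cortex value rests on few cells, since 8 of 3393 cortex-like cells carried 68.5% of the class II UMIs of that class, and without cells that held an immune or macrophage marker UMI *Cd74* was 2.14 CPM (1.53 to 2.91) in the cortex and 3.07 CPM (1.90 to 4.69) for the adrenaline class. All immune cells together exceeded the endothelium 141-fold (124 to 160.2). The 3 chains were near each other in macrophage-like cells, with *H2-Aa* at 1774 CPM (1685 to 1867), *H2-Ab1* at 1525 CPM (1442 to 1612) and *H2-Eb1* at 1442 CPM (1362 to 1526). The same 3 genes stood between 0.550 and 1.24 CPM in the adrenaline class.

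Between cycling and noncycling macrophage-like cells, class II differed far more than class I. Cycling macrophage-like cells had 0.285 times (0.258 to 0.313) the summed class II level of noncycling ones but 0.937 times (0.839 to 1.04) the class I level. For each *Cd74* UMI they held 0.150 *H2-Aa* UMIs (0.108 to 0.203), against 0.251 (0.237 to 0.266) in noncycling macrophage-like cells and 0.388 (0.325 to 0.461) in *Plac8*-led cells. Among the 3 noncycling macrophage-like subclusters, *Cd74* ranged from 5368 to 9629 CPM while *H2-D1* ranged from 924 to 1304 CPM. The *Plac8*-led cells combined high class II with the lowest *H2-K1* of the immune clusters (283 CPM, 187 to 412, against 684 CPM in macrophage-like cells). A minority of them carried the class II level: 17 of 60 cells held 94.0% of the class II UMIs, the median was 1 UMI, and 60% of cells had no UMI of the 3 chains. The cluster also held neutrophil markers at 16063 CPM (3 of 5 read, *Ly6g* and *Retnlg* at 0), whose part in these values was not tested. These clusters were drawn without the MHC genes.

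Macrophage-like cells were not uniform in class II. Of 466 cells, 76.8% held at least 1 class II UMI and 51.5% (46.9 to 56.1) held 10 or more, and the latter carried 95.8% of all class II UMIs of the class. C1q, the complement component that marks tissue macrophages, was read in 99.6% of these class II-rich cells and in 99.1% of the others. The C1q genes are among the markers that named this class, so high shares were in part set by the naming. All 4 class II genes together were read in 42.1% of macrophage-like cells. After thinning to 1000 UMIs, the median was 10 class II UMIs in the first, 4.5 in the second and 5 in the third macrophage-like subcluster, with ranges of 0 to 72, 0 to 56 and 0 to 52, so cells without class II and cells rich in it stood side by side in each of them. In the *Plac8*-led cells 28.3% (17.5 to 41.4) held 10 or more class II UMIs.

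**Figure D4:**
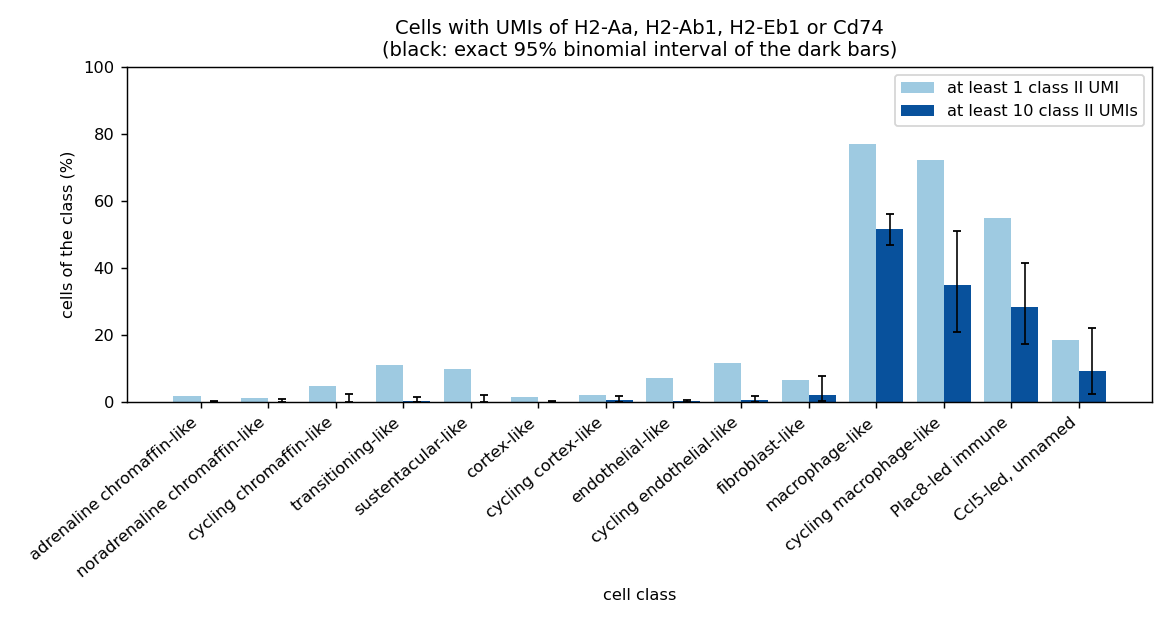
Share of cells (%) with at least 1 UMI (light bars) and at least 10 UMIs (dark bars, with exact 95% binomial intervals) of *H2-Aa*, *H2-Ab1*, *H2-Eb1* or *Cd74*, by class. At least 10 UMIs were read in 51.5% of macrophage-like, 34.9% of cycling macrophage-like, 28.3% of *Plac8*-led and 9.30% of unnamed cells, and in no more than 2.25% of the cells of any other class.

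Outside the immune clusters, class II reads were few, and their source has to be read beside the free RNA of a droplet library. In adrenaline chromaffin-like cells, which are not known to carry class II, 1.81% of cells (median 3168 UMIs) had a class II UMI and 1.75% had a C1q UMI. Higher shares were read in endothelial-like (8.32%, median 2004 UMIs), transitioning (11.1%, median 5180.5) and sustentacular-like cells (9.83%, median 1117). After thinning, these shares were 0.365% in adrenaline chromaffin-like, 4.25% in endothelial-like, 3.78% in transitioning and 9.40% in sustentacular-like cells. C1q UMIs for each *Cd74* UMI were 2.80 (2.72 to 2.88) in immune cells, but 0.441 (0.350 to 0.553) in the endothelium and 0.492 (0.307 to 0.773) in transitioning cells. The immune clusters differed in this ratio. It was 6.27 (5.57 to 7.08) in cycling macrophage-like cells but 0.483 (0.411 to 0.567) in *Plac8*-led cells, near the endothelial value, and 0 in the unnamed cluster. It was 0.929 (0.402 to 2.13) in the sustentacular-like, 1.41 (1.13 to 1.77) in the cortex-like, 1.48 (0.822 to 2.70) in the adrenaline and 1.83 (1.19 to 2.85) in the fibroblast-like class. Markers of macrophages in these cells summed to 84.1 CPM in the sustentacular-like class (6 of 8 markers read, *Csf1r* and *Cx3cr1* at 0), 67.5 CPM in the transitioning class (8 of 8, with 46.2 CPM from a single marker) and 298 CPM in noncycling endothelial-like cells (8 of 8), against 23697 CPM in macrophage-like cells. The 6 general immune markers summed to 3.72 CPM in the adrenaline class, 9.54 CPM in transitioning, 23.4 CPM in sustentacular-like (*Ptprc*, *Laptm5* and *Coro1a* at 0) and 90.1 CPM in noncycling endothelial-like cells, against 10013 CPM in macrophage-like cells. In noncycling endothelial-like cells a single macrophage marker gave 155 of the 298 CPM, and a single immune marker 58.6 of the 90.1 CPM. The class II levels without the cells that held such UMIs are given next. This does not remove free RNA from the cells kept, so the part of immune RNA was not measured.

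Leaving out every nonimmune cell with a UMI of an immune or macrophage marker, a choice made after these values were seen, kept 1148 of 2140 endothelial-like cells, in which *Cd74* was 29.7 CPM (23.04 to 37.8) and the class II sum 58.1 CPM (48.6 to 69.0, against 87.8 CPM in all). In transitioning cells the class II sum went from 67.9 to 33.1 CPM (25.4 to 42.5), in fibroblast-like cells from 274 to 24.5 CPM (5.05 to 71.5, from 3 UMIs) and in sustentacular-like cells from 178 to 141 CPM (93.9 to 204). The *Cd74* ratio of immune to endothelial-like cells then became 211 (166 to 273). Cells with at least 10 class II UMIs numbered 2 of 89 in the fibroblast-like class and carried 93.2% of its class II UMIs, and 2 of 424 in the transitioning class with 48.3%. The class II value of the fibroblast-like class therefore rests on a few cells. That of the transitioning class does so only in part, since 47 of its 424 cells held a class II UMI. The class I sum differed less when the same cells were left out, with 2352 CPM against 2364 CPM in the endothelium, 2903 CPM against 2770.3 CPM in sustentacular-like, 1031 CPM against 939.9 CPM in transitioning and 1444 CPM against 1698 CPM in fibroblast-like cells.

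The other genes of the pathway, taken from lists that do not contain the members, were ordered in part like them. The counts below are over the genes of a list that reached 10 CPM in either class of a comparison. Many of them reached it through the higher class alone, which by itself raises the counts. They are read beside the share of all genes 2-fold or more higher than in adrenaline chromaffin-like cells, which was 23.1% in the endothelium, 20.4% in sustentacular-like and 21.1% in immune cells. Of the other class I chains that reached 10 CPM, 5 of 6 were 2-fold or more higher in the endothelium than in adrenaline chromaffin-like cells, 4 of 4 in sustentacular-like and 6 of 6 in immune cells (23.1%, 20.4% and 21.1% of all genes). Only *H2-Q4* and *H2-M3* reached 10 CPM in the adrenaline class itself. Both were called higher in sustentacular-like and immune cells, but *H2-M3* was not in the endothelium (18.8 against 10.9 CPM). *H2-Q4* and *H2-Q7*, near copies of the classical chains, were highest outside the immune cells in the sustentacular-like class (131 CPM for *H2-Q4*, 117 CPM for *H2-Q7*), followed by the endothelium (68.3 and 70.2 CPM), and stood at 12.9 and 7.02 CPM in the adrenaline class. Of the other genes of class I processing (immunoproteasome, chaperones, peptidases), 4 of 11 were higher in the endothelium, not far from the 23.1% of all genes, and 6 of 11 in immune cells (21.1% of all genes). *Psmb8*, an immunoproteasome subunit, went from 44.3 CPM in the adrenaline class and 89.4 CPM in the noradrenaline class to 203 CPM in the endothelium and 412 CPM in macrophage-like cells, while the chaperone *Calr* (284 CPM in adrenaline chromaffin-like cells, 454 CPM in the endothelium) and the proteasome activator *Psme1* (271 and 367 CPM) varied less. Noradrenaline chromaffin-like cells thus had more *Psmb8* but less *B2m* than adrenaline chromaffin-like cells.

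Of the class I-like molecules, 3 of 5 were 2-fold or more higher in the endothelium than in adrenaline chromaffin-like cells, 1 of 3 in sustentacular-like and 2 of 3 in immune cells, counts too small to read against the 23.1%, 20.4% and 21.1% of all genes. *Mr1*, which presents vitamin metabolites, went the other way in all 3 comparisons, with 32.1 CPM in the adrenaline class, 11.8 CPM in the endothelium, 4.67 CPM in the sustentacular-like class and 7.53 CPM in immune cells. *Fcgrt*, the neonatal Fc receptor chain that also pairs with B2m, was read at 426 CPM in macrophage-like cells, 272 CPM in the endothelium and 117 CPM in sustentacular-like cells, but at 1.79 CPM in adrenaline chromaffin-like cells. *Cd1d1*, which presents lipids, was instead highest in the cortex (293 CPM, against 15.1 CPM in the endothelium and 3.99 CPM in adrenaline chromaffin-like cells), and so ran against the low class I level of that tissue. *Hfe*, a regulator of iron uptake, stood at 154 CPM in macrophage-like cells and at 32.2 CPM or less in the cortex, the endothelium and the medullary classes.

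The class II accessory genes were read in immune cells with the members. *H2-DMa*, which exchanges the peptide on class II, stood at 513 CPM in macrophage-like and 441 CPM in *Plac8*-led cells, and *H2-DMb1* at 166 and 199 CPM. The protease *Ctss*, which trims the invariant chain, was at 2936 and 1228 CPM, the reductase *Ifi30* at 531 and 419.7 CPM, and the protease *Lgmn* at 628 and 105 CPM. All 3 of the other class II chains and chaperones, all 4 class II processing genes and all 3 costimulatory genes that reached 10 CPM were 2-fold or more higher in immune than in adrenaline chromaffin-like cells (21.1% of all genes), most of them past 10 CPM in the immune cells alone. *Cd86*, a costimulatory ligand of T cells, had 197 CPM in macrophage-like and 0 in adrenaline chromaffin-like cells. *Ctss* was read at 2.28 CPM and *H2-DMa* at 3.69 CPM in the endothelium, in which *Cd74* stood at 44.6 CPM.

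Of the transcription factors of the MHC, 7 of 12 were 2-fold or more higher in the endothelium than in adrenaline chromaffin-like cells, 5 of 11 in sustentacular-like and 8 of 14 in immune cells (23.1%, 20.4% and 21.1% of all genes). *Ciita*, the class II transactivator, was read at 38.5 CPM in macrophage-like and 63.0 CPM in *Plac8*-led cells, at 0.527 CPM in the endothelium, and at 0 in adrenaline and noradrenaline chromaffin-like, transitioning, sustentacular-like and fibroblast-like cells. *Nlrc5*, the class I transactivator, was low throughout: 16.9 CPM in macrophage-like, 6.32 CPM in endothelial-like, 1.93 CPM in adrenaline chromaffin-like and 0 in sustentacular-like cells. The 0 in that small and shallow class sets no close limit, since 4 UMIs of *H2-T23* there made 18.7 CPM. *Irf1*, which carries the interferon signal, had 70.1 CPM in the endothelium, 37.4 CPM in the sustentacular-like class and 18.2 CPM in the adrenaline class. In the noradrenaline class, with less *B2m* and *H2-D1* than the adrenaline class, it had 54.6 CPM. *Irf8* was at 214 CPM in macrophage-like and 130.5 CPM in endothelial-like cells, and *Rfx5*, a subunit of the complex at the X box, was between 4.67 and 14.6 CPM in the macrophage-like, endothelial, sustentacular-like, adrenaline and noradrenaline classes.

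Some interferon-induced genes stood with class I in the vessel wall and glia. Of those that reached 10 CPM, 14 of 17 were 2-fold or more higher in the endothelium than in adrenaline chromaffin-like cells, 9 of 13 in sustentacular-like and 12 of 14 in immune cells (23.1%, 20.4% and 21.1% of all genes), and 5 of 12 were higher in transitioning than in noradrenaline chromaffin-like cells (7.04%). Most passed 10 CPM through the higher class alone, as did all 5 of the transitioning class. Among the genes called higher, those that also reached 10 CPM in the adrenaline class were *Irf9*, *Gbp7* and *Oasl2* for the endothelium. They were *Ifit2* and *Gbp7* for sustentacular-like cells, and *Irf9*, *Gbp7*, *Stat2* and *Oasl2* for immune cells. Other list genes reached 10 CPM in the adrenaline class without being called higher. These were *Ifit1*, *Ifit2* and *Stat2* for the endothelium, and *Irf9*, *Ifit1*, *Stat2* and *Oasl2* for sustentacular-like cells. *Ifit1* was instead 2-fold or more lower in the endothelium (19.5 CPM) and in immune cells (4.70 CPM) than in the adrenaline class (42.9 CPM), and *Ifit2* in immune cells (2.82 against 11.0 CPM). *Ifitm3*, a membrane protein that restricts viral entry, was at 2685 CPM in the endothelium and 1126 CPM in sustentacular-like cells against 4.68 CPM in adrenaline chromaffin-like cells, and *Iigp1*, a GTPase, at 192 and 84.1 CPM against 0.275 CPM. *Rsad2* was at 306 CPM in the endothelium but 0 in sustentacular-like cells. All 4 interferon receptor chains were 2-fold or more higher in the endothelium, and *Ifngr1* had 66.9 CPM there, 98.1 CPM in the sustentacular-like and 15.3 CPM in the adrenaline class. *Ifng* itself was read only in the unnamed *Ccl5*-led cluster, at 67.2 CPM.

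Outside these lists, the genes whose level was most like the class I sum over the 14 classes were *Tsc22d3* (r = 0.93), *Sult1a1* (0.92), *Cfl1* (0.91), *Parp14* (0.91) and *Ddit4* (0.90), by Pearson's correlation of log2(CPM + 1) among 5658 genes. For the class II sum they included *Klf6* (r = 0.97), *Lcp1* (0.96), *Ifi27l2a* (0.96) and *Ptpre* (0.96). Among the members, the 4 class II genes correlated with each other at 0.983 to 0.996, and *B2m* with *H2-D1* at 0.965 and with *H2-K1* at 0.891. *H2-T23* followed *Tapbp* (0.884) more than *H2-D1* (0.620), and *Tap1* followed neither *Tapbp* (0.0252) nor *H2-T23* (0.0915). These are descriptions over 14 classes of 1 library, and the classes share its free RNA.

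The pool held both sexes, so cells could be divided by their own transcripts, a division made after the other values had been seen. Cells with *Xist*, the RNA of the inactive X chromosome, and no UMI of 4 Y-linked genes were taken as female (1954 cells), and those with Y-linked UMIs and no *Xist* as male (3996 cells), while 213 cells had both and 3976 had neither. The number of mice of each sex in the pool of 5 is not given, so sex cannot be told apart from the mouse, its alleles or its litter. Female cells were also shallower, with a median of 3908.5 against 5191 UMIs over all cells passed. The values below compare cells of 1 library and not female with male mice.

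*B2m*, *H2-K1* and *H2-D1* read lower in female than in male cells in each of the 7 classes compared, although in macrophage-like cells the interval for *H2-D1* held 1 (732.8 and 965 CPM, male to female ratio 1.32, 0.963 to 1.81). In the endothelium, *H2-K1* stood at 201 CPM in female and 717 CPM in male cells (male to female ratio 3.56, 3.09 to 4.12), *H2-D1* at 312 and 898 CPM (2.88, 2.56 to 3.23) and *B2m* at 462 and 912 CPM (1.97, 1.79 to 2.18). In the cortex *B2m* had 39.3 and 116 CPM (2.95, 2.54 to 3.44), *H2-D1* 41.8 and 117 CPM (2.81, 2.43 to 3.26) and *H2-K1* 35.7 and 87.8 CPM (2.46, 2.10 to 2.90). The difference was smaller in adrenaline chromaffin-like cells, with *B2m* at 253 and 374 CPM (1.48, 1.31 to 1.69) and *H2-D1* at 216 and 303 CPM (1.40, 1.22 to 1.62), and larger in transitioning cells, with *B2m* at 143 and 356 CPM (2.49, 1.98 to 3.16) and *H2-K1* at 54.3 and 188 CPM (3.47, 2.41 to 5.14). In sustentacular-like cells *H2-D1* was at 259 CPM in 21 female and 1160.2 CPM in 25 male cells (4.47, 1.95 to 12.0). The other 127 cells of that class had no sex call, and both levels lay below the 1364 CPM of the whole class. The called cells may therefore not stand for it. The part of alleles in these differences was not tested.

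In noradrenaline chromaffin-like cells the 40 female cells held a single *B2m* UMI (6.09 CPM) and the 127 male cells 48 (88.4 CPM), a ratio of 14.5 with an interval of 2.48 to 585. A *B2m* UMI was thus read in 2.50% (0.0633 to 13.2) of female and 24.4% (17.2 to 32.8) of male cells, whose median depths were 2520.0 and 3528 UMIs. After thinning to 1000 UMIs it was 0 of 37 female cells, which allows up to 9.49%, and 6.56% (2.87 to 12.5) of male cells. The low *B2m* of this class was therefore present in the male cells too, since male adrenaline chromaffin-like cells had 374 CPM.

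*H2-T23* shared this difference in some classes only, and *Tapbp* showed none beyond the counting error in the classes given here. Over all immune cells *H2-T23* was, with *H2-K1*, 2-fold or more higher in male cells. *H2-T23* was higher in female than in male cells of the adrenaline class (57.1 and 37.1 CPM, male to female ratio 0.650, 0.483 to 0.883) and of the cortex (12.3 and 8.48 CPM, 0.689, 0.498 to 0.960), and lower in female endothelial-like cells (57.9 and 94.7 CPM, 1.64, 1.23 to 2.20). *Tapbp* had ratios of 0.996 (0.788 to 1.27) in adrenaline chromaffin-like, 1.12 (0.929 to 1.35) in cortex-like and 1.23 (0.952 to 1.61) in endothelial-like cells. The class I genes thus differed unequally between female and male cells of the same class.

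Among macrophage-like cells, class II differed more between female and male cells than class I did. Of the 466 cells of this class, 353 had no sex call, so the called cells may not stand for it. The class II sum was 1621 CPM in 51 female and 13364 CPM in 62 male cells, a ratio of 8.24 (6.95 to 9.84), with *H2-Eb1* at 88.8 and 1870.0 CPM (21.1, 10.5 to 49.4) and *Cd74* at 1255 and 7608 CPM (6.06, 4.98 to 7.44). C1q, by contrast, had 18254 and 18683 CPM (1.02, 0.960 to 1.09). At least 10 class II UMIs were held by 13.7% of female and 62.9% of male macrophage-like cells, and after thinning to 1000 UMIs a class II UMI was read in 35.6% (21.9 to 51.2) and 83.0% (70.2 to 91.9) of them. In the 3 noncycling and the cycling macrophage-like subclusters the ratios were 6.67 (5.23 to 8.61), 17 (10.2 to 30.6), 7.14 (5.40 to 9.60) and 10.2 (6.40 to 17.1), but in the *Plac8*-led cells, with 7 female and 12 male cells, it was 1.09 (0.879 to 1.35). That value rests on few cells, since 1 female *Plac8*-led cell held 71 UMIs, 50.7% of the female class II UMIs of the cluster, and with at least 2 UMIs required to call a cell's sex the 4 female and 2 male cells left gave 0.0207. With the MHC genes kept among the variable features the ratio in macrophage-like cells was 4.67 (4.12 to 5.32), and with at least 2 UMIs required to call a cell's sex it was 14.8 (11.8 to 18.8), from 36 female cells and only 5 male ones.

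The class II UMIs of the endothelium were also divided unevenly: 10 UMIs in 454 female cells (9.19 CPM) and 228 in 606 male cells (99.5 CPM), a ratio of 10.8 (5.78 to 22.9), beside a C1q ratio of 2.91 (1.37 to 7.11) in the same cells. A class II UMI was read in 0.881% (0.241 to 2.24) of female and 10.7% (8.38 to 13.5) of male endothelial-like cells, with 28.1% of the male UMIs in a single cell, and after thinning in 0.748% and 4.31%. Transitioning cells went the other way, with 146 CPM in female and 42.9 CPM in male cells, but 1 cell held 79.8% of the female class II UMIs, and 4.0% of female against 14.2% of male cells had any.

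Between male and female cells of a class few genes differed 2-fold, which sets these values in context. Of members with at least 20 UMIs in both sexes together, 6 of 10 were 2-fold or more higher in male endothelial-like cells, where 1.77% of all genes were. The 4 class II genes among these had few UMIs in female cells (above). They passed 20 UMIs through the male cells alone and are not read as a result. Of the 4 class I chains 2 were higher, *H2-K1* and *H2-D1*. The count over all members was 3 of 10 in the cortex (0.711% of all genes), 1 of 6 in adrenaline chromaffin-like cells (2.09%), 6 of 9 in immune cells (4.89%) and 3 of 9 in transitioning cells (2.68%). In transitioning cells 4 of 9, the class II genes, were 2-fold or more lower (1.31%), but most of their female UMIs lay in a single cell (above). Of the other class I chains, 5 of 6 were higher in male endothelial-like cells, among them *H2-Q7* with 11.0 and 83.8 CPM (7.60, 4.25 to 15.0), and of the interferon-induced genes 5 of 17, among them *Iigp1* with 51.4 and 229 CPM (4.45, 3.37 to 5.97), beside the 1.77% of all genes. *H2-Q7* had few UMIs in female cells and passed 20 UMIs through the male cells. How many others did so was not counted, so these 2 counts are not read as a result. *Ifitm3* (2239 and 2649 CPM) and *Bst2* (284 and 325 CPM) differed less between female and male endothelial-like cells. The 4 interferon receptor genes held no 2-fold difference in any of the 5 classes.

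**Figure D5:**
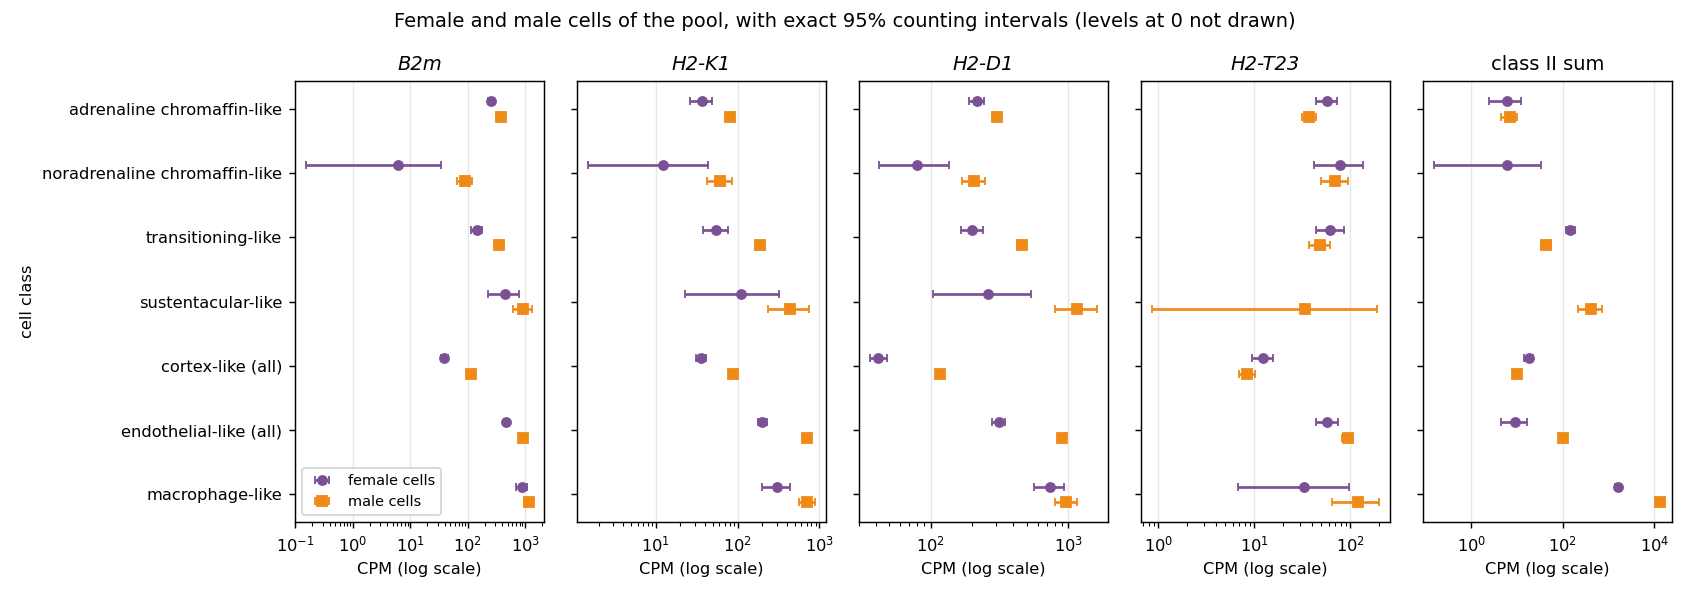
Levels (CPM, log axis) of 4 class I chains and of the class II sum in female (circles) and male (squares) cells of 7 classes, with exact 95% counting intervals; a level of 0 is not drawn. *B2m*, *H2-K1* and *H2-D1* are lower in female cells of all 7 classes, whereas *H2-T23* is higher in female cells of the adrenaline chromaffin-like class and the cortex, and the class II sum is 1621 CPM in female and 13364 CPM in male macrophage-like cells.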

How the data were processed

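Single cells of pooled adrenal medullae were profiled with 10x Genomics 3′ v3.1 chemistry, with 10000 viable cells loaded. The authors deposited raw UMI counts (whole numbers, not normalized) for each gene in each barcode; per the submitters' processing notes they come from Cell Ranger 4.0.0 and mm10, and strand use is not given in the sources used here. The total was 51421499 UMIs, with 500 to 33809 per barcode. Cells with 500 to 5000 genes and at most 20% mitochondrial UMIs were kept, as in the methods of the study. Cells were normalized and clustered in Seurat 5.3.0 (R 4.3.3; 2000 variable features without the 93 of 99 listed genes that the table holds, 10 principal components, resolution 0.4), and each compartment was clustered again. A cluster was named when at least 3 markers of a type were read in 50% of its cells (25% for sustentacular and cycling markers); doublets were called with Scrublet (scanpy 1.11.5, 669 cells), and only clusters with markers of several lineages were removed. Thinned cells were drawn to 1000 UMIs, leaving out 526 shallower cells.

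Levels are UMIs summed over cells, and ratios have exact conditional intervals (SciPy 1.17.1). These were checked on simulated data. Counts of genes 2-fold apart used log2(CPM + 1) and genes at 10 CPM or more in either class, or with 20 UMIs or more between sexes, and intervals cover counting error only. The members, lists and motifs were chosen with earlier results of these data known. All members were reported in every comparison, list genes by counts with at most 5 examples a list of 50 CPM or more in any class (*Nlrc5* and *Rfx5*, below that, were chosen after their values were seen), and the 5 genes most like each sum among those read in 25% of the cells of a class. A few of these genes are not reported here. Alternatives were another clustering (resolution, components, list genes kept), stricter filters, doublet removal and other averages. With 1 library no test between samples was made.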

Additional observations from a re-analysis of the deposited data

How the results depend on the processing

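Of the 6 values followed through all settings, none changed direction. Counting UMIs per cell in place of CPM moved all of them: the ratio of endothelial-like to adrenaline chromaffin-like cells became 1.41 for *B2m* and 5.29 for *H2-K1*, that of sustentacular-like to adrenaline chromaffin-like cells 1.33 for *H2-D1*, that of transitioning to noradrenaline chromaffin-like cells 5.91 for *B2m* and that of immune to endothelial-like cells 98.8 for *Cd74*, and 50.6% of immune cells had at least 2 UMIs of *H2-Aa*, *H2-Ab1* or *H2-Eb1*, against 59.4% with at least 1. This setting makes no correction for the depth of a cell. The *Cd74* ratio of 141 was 121 with 30 principal components, 122 with stricter filters (at least 1000 genes, at most 10% mitochondrial UMIs) and 211 without nonimmune cells that held an immune marker UMI, a setting added after the data were seen; the cause was not tested. The stricter filters left no sustentacular-like class, so *H2-D1* had no value there. Of the comparisons by sex, also added afterwards, the class II ratio of macrophage-like cells was 14.8 with 2 UMIs required for a call, which left 5 male cells, and 4.67 with the MHC genes kept in the clustering. Doublet removal and resolutions of 0.2 and 0.8 left these values within their counting intervals. The mean of each cell's CPM, or thinned cells for the share, did so for the 6 values and was not run by sex. The depth of 1117 UMIs per sustentacular-like cell limits *H2-T23* and *Tap1* there to 4 and 11 UMIs, and without replicates no value has a spread between mice.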

Other observations

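The unnamed cluster of 43 cells led by *Ccl5*, *Gzma* and *Nkg7*, which belonged to no comparison of the report, held *B2m* at 571 CPM (396 to 798.3), *H2-K1* at 554 CPM (382 to 779) and *H2-D1* at 706 CPM (509 to 954). Its *Cd74* level was 891 CPM (667 to 1165), but only 4 of its cells had 10 or more class II UMIs, and these carried 91.4% of them. No C1q UMI was read in it. The 1116 cells left out for markers of more than 1 lineage held the class I chains at 834.8 CPM and class II at 442 CPM.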
